A study of Homo sapiens with 8 samples.

Results

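The genes described here are 37 genes of the aminoacyl-tRNA synthetases measured in KYSE150 cells, an established human line from esophageal squamous cell carcinoma: 19 cytosolic enzymes, 16 mitochondrial enzymes and the scaffold proteins AIMP1 and AIMP2. They were taken by symbol, and all 37 were among the 16082 genes of the deposited count table and among the 12001 that passed the filter on low counts. The line was sequenced as poly(A) RNA in 4 control libraries (genotype Control, treatment none) and 4 libraries with a short hairpin RNA against HNRNPC (genotype ShHNRNPC, treatment none). HNRNPC encodes a nuclear protein that binds nascent transcripts. Which sequence the hairpin targets, what construct the controls carried and how long the knockdown lasted are not stated, and whether the knockdown was 1 clone or a pool is not stated either; all libraries come from this 1 cell line. The labels do not say that the 4 libraries of a group came from separate cultures, so p-values measure the spread between these libraries, which may be technical.

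Aminoacyl-tRNA synthetases join each amino acid to its tRNA, the step that sets which residue a codon adds to a protein. Cytosolic and mitochondrial protein synthesis mostly use separate nuclear genes, with the mitochondrial enzyme carrying the suffix 2, whereas GARS1 and KARS1 each supply both compartments from a single gene. Several cytosolic enzymes sit in a multisynthetase complex held together by AIMP1, AIMP2 and EEF1E1. The transcription factor ATF4, which is translated when the kinase GCN2 senses uncharged tRNA, is known to bind the promoters of many cytosolic synthetase genes along with those of amino acid synthesis and transport genes.

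HNRNPC was measured at 601, 589.7, 571 and 587 CPM in control libraries 1 to 4 and 33.8, 32.9, 32.5 and 36.5 CPM in shHNRNPC libraries 1 to 4 (log2 fold change -4.12, SE 0.027, edgeR adjusted p = 5.7e-75), so every library matched its label. CPM are gene counts scaled to a common library size, here with a TMM factor for each library, and a gene was called when the Benjamini-Hochberg adjusted p of edgeR's quasi-likelihood test over all 12001 genes was below 0.05. Library totals were 31260906 to 33745592 counts in the control group and 28323403 to 34913500 in the shHNRNPC group. Of the 12 epithelial markers listed, 11 were tested, and their summed level was 3542 to 3615 CPM in the controls and 5614 to 5769 CPM after knockdown. The rise in this sum was carried mostly by KRT8 (means 786 and 1684 CPM), KRT18 (868 and 1280.1 CPM), which are keratins of simple epithelia, and KRT5 (564 and 1122 CPM). KRT17, CDH1 and EPCAM also rose, whereas TP63 (176 and 129 CPM), DSG3, KRT14, KRT6A and ITGB4 fell, and SOX2 had 9 reads over all libraries. Of 15 markers of fibroblasts, blood, endothelium, liver and muscle, all but PTPRC and CD3E were analysed here. Of these 13, 4 passed the filter, and of the 4 COL1A1 rose and VWF fell. The summed level of all 13 was 5.68 to 6.32 CPM in the controls and 9.48 to 10.8 CPM after knockdown, with COL1A1 at 3.25 and 7.86 CPM. Of the 9 below the filter, CD14 had 1 to 6 reads in a control and 8 to 12 in a knockdown library, PECAM1 had 45 reads over all libraries, MYH11 15 and DES 7, and ALB, LYZ, DCN, COL1A2 and COL3A1 had 4 or fewer. The part of these marker differences in the results below was not tested.

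Cytosolic synthetase transcripts fell after HNRNPC knockdown in 16 of 19 genes, HARS1 rose, and KARS1 and FARSA were not called. Across all genes tested 38.6% were called lower and 38.7% higher, 77.3% in all, so a call in itself was common in these libraries. Of the 19 genes 7 were called and at least 1.5-fold lower, against 12.2% of all genes tested. Their median change on the log2 scale was -0.51, beside -0.01 over all genes tested. None of the 37 genes was called and at least 1.5-fold higher, where 9.61% of all genes were. In bulk RNA a smaller number of cells expressing a gene and less of its RNA per cell cannot be told apart.

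The mitochondrial enzymes held calls in both directions, as did all genes tested, of which 38.6% were called lower and 38.7% higher. Of 16 genes, 8 fell, 4 rose (CARS2, AARS2, LARS2 and IARS2) and 4 were not called (PARS2, RARS2, EARS2 and FARS2). The median change was -0.14 on the log2 scale. Only VARS2 of this group was called and at least 1.5-fold lower, against 12.2% of all genes tested. The groups of libraries did not overlap in CPM for 16 falls and 1 rise among the cytosolic genes and for 6 lower and 5 higher mitochondrial genes, FARS2 among the latter. Over all genes tested, 35.4% did not overlap with lower and 35.4% with higher values after knockdown.

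**Figure D1:**
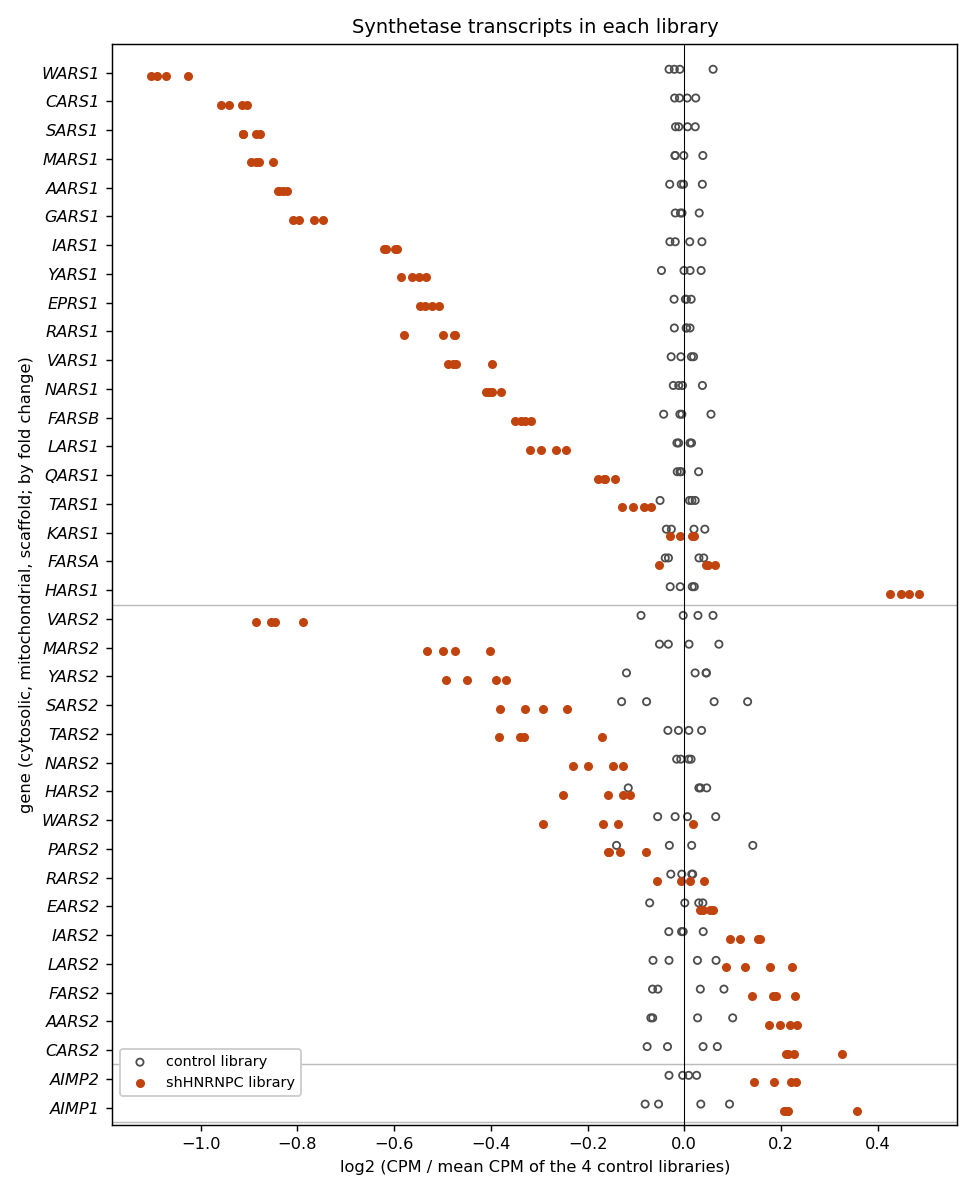
Each point is 1 library, placed by the log2 ratio of its CPM to the mean of the 4 control libraries (horizontal axis), with open points for control and filled points for shHNRNPC libraries and 1 gene per line. The filled points of 16 cytosolic genes lie to the left of all their open points, from WARS1 (log2 fold change -1.07) to TARS1 (-0.10), and those of mitochondrial genes lie on both sides.

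The promoters of the synthetase genes were searched for TGATGNAA, the core of the composite element bound by ATF4 with C/EBP proteins, on both strands of the RefSeq windows from 250 bases before to 50 bases after each annotated start (GRCh38.p14). Of the 37 genes, 32 had a window, and LARS1, VARS1, YARS1, AARS2 and VARS2 had none. The word was found in 7 of 16 cytosolic genes and in 1 of 14 mitochondrial genes (YARS2). Of the 9890 tested genes with a window 2.83% held it, as did 3.62% of all 35116 windows. The matches with 11 bases on each side are printed along the sense strand of the gene, with the 8 matching bases in capitals. TTGCATCA and TTTCATCA are matches on the opposite strand.
IARS1 (chr9:92293692-92293721, minus strand): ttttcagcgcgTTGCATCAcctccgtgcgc
MARS1 (chr12:57488053-57488082, plus strand): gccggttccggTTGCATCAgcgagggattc
CARS1 (chr11:3057407-3057436, minus strand): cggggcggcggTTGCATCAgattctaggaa
TARS1 (chr5:33440956-33440985, plus strand): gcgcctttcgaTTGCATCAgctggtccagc
GARS1 (chr7:30594834-30594863, plus strand): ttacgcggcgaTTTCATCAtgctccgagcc
AARS1 (chr16:70289675-70289704, minus strand): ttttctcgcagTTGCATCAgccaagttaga
NARS1 (chr18:57621804-57621833, minus strand): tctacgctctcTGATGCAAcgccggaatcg
YARS2 (chr12:32756076-32756105, minus strand): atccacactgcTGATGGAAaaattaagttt

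In IARS1, MARS1, CARS1, TARS1, AARS1 and NARS1 the match reads TGATGCAA on 1 of the strands, whereas GARS1 has TGATGAAA and YARS2 TGATGGAA. The first base of the match lies 13 bases before an annotated start in IARS1, 4 in MARS1, 2 in CARS1 and 33 in GARS1, and 2 bases after it in TARS1 and 14 in NARS1. In AARS1 and YARS2 it lies further upstream, at 187 and 197 bases. The 7 cytosolic genes with a match all fell, with log2 changes from -0.10 (TARS1) to -0.93 (CARS1) and a median of -0.78. Of the 9 cytosolic genes with a window and no match 6 fell and HARS1 rose, with a median of -0.33, and they include WARS1 and SARS1, whose falls were among the largest. Over all tested genes with a window, 280 held the word and 47.1% of them were called lower, against 38.3% of the 9610 without it. Among the amino acid response genes described further on, 7 of 8 with the word fell (median -1.04) and 17 of 19 without it (median -0.98). None of these splits was tested. A match of letters is not evidence of binding, and no binding was measured here.

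The largest fall of any member was in WARS1, which charges tryptophan tRNA and is known as an interferon-inducible gene. It was measured at 382, 361, 364 and 358 CPM in control libraries 1 to 4 and 174, 171, 172 and 179.9 CPM in shHNRNPC libraries 1 to 4, 47.6% of the control mean (log2 fold change -1.07, SE 0.022, edgeR adjusted p = 5.4e-48). The highest knockdown library was below the lowest control library by more than the spread within either group. WARS1 lies on chromosome 14, 100333790 to 100376327 in the RefSeq annotation of GRCh38.

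CARS1, the cysteinyl enzyme, was measured at 214, 211, 209 and 207 CPM in control libraries 1 to 4 and 109, 112, 108 and 111 CPM in shHNRNPC libraries 1 to 4 (log2 fold change -0.93, SE 0.024, edgeR adjusted p = 1.5e-42). SARS1, which charges serine tRNA and also the selenocysteine tRNA with serine, was at 430.0, 419.9, 425 and 418 CPM in control libraries 1 to 4 and 229, 225, 225 and 231 CPM in shHNRNPC libraries 1 to 4 (log2 fold change -0.90, SE 0.020, edgeR adjusted p = 4.1e-46). AARS1, the alanyl enzyme with an editing activity that removes misattached amino acids, was at 621, 593, 603 and 605 CPM in control libraries 1 to 4 and 343, 341, 339 and 338 CPM in shHNRNPC libraries 1 to 4 (log2 fold change -0.83, SE 0.019, edgeR adjusted p = 1.3e-45). For these genes too the groups were far apart, and the knockdown libraries differed among themselves by a few CPM. GARS1, which charges glycine tRNA in the cytosol and in mitochondria, was at 705, 704, 698 and 723 CPM in control libraries 1 to 4 and 422, 407, 404 and 416 CPM in shHNRNPC libraries 1 to 4 (log2 fold change -0.78, SE 0.019, edgeR adjusted p = 3.2e-44). YARS1, the tyrosyl enzyme, was at 412, 406, 389.6 and 402 CPM in control libraries 1 to 4 and 268, 272, 278 and 275 CPM in shHNRNPC libraries 1 to 4 (log2 fold change -0.56, SE 0.021, edgeR adjusted p = 2.1e-34). Both fell in every knockdown library, YARS1 by less than the genes above.

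Among the synthetases of the multisynthetase complex, 6 of 7 fell and KARS1 was not called, and their median change was -0.51 on the log2 scale. The 12 cytosolic enzymes outside it had a median of -0.51, with 10 lower and HARS1 higher. The shares of all genes tested were 38.6% called lower and 38.7% higher. MARS1, which supplies methionine for initiation and elongation, was at 685, 667, 659 and 659 CPM in control libraries 1 to 4 and 359, 361, 370.4 and 363 CPM in shHNRNPC libraries 1 to 4 (log2 fold change -0.88, SE 0.019, edgeR adjusted p = 6.8e-47). Its exons overlap other genes over 13.3% of their bases, including DDIT3, which itself went from 35.3 ± 2.40 to 17.8 ± 1.83 CPM (± SD over 4 libraries, log2 change -0.98), and without a stated strand setting the reads of the overlap cannot be separated. IARS1, the isoleucyl enzyme, was at 839, 815, 822 and 854 CPM in control libraries 1 to 4 and 551, 541, 543 and 549.6 CPM in shHNRNPC libraries 1 to 4 (log2 fold change -0.61, SE 0.019, edgeR adjusted p = 5.1e-39). EPRS1, a single protein that charges both glutamate and proline tRNAs, was at 832, 825, 826 and 812 CPM in control libraries 1 to 4 and 579.6, 574, 568 and 564 CPM in shHNRNPC libraries 1 to 4 (log2 fold change -0.53, SE 0.018, edgeR adjusted p = 3.3e-36). RARS1, the arginyl enzyme, was at 249.5, 255, 254 and 254 CPM in control libraries 1 to 4 and 169, 182, 182 and 179 CPM in shHNRNPC libraries 1 to 4 (log2 fold change -0.51, SE 0.023, edgeR adjusted p = 1.2e-29). In RARS1 knockdown library 1 was the lowest of its group, and all libraries of the group still lay below every control. The remaining complex enzymes changed less: LARS1 (leucine) went from 313 ± 3.39 to 257 ± 5.84 CPM (SD, n = 4) and QARS1 (glutamine) from 209.5 ± 2.93 to 187 ± 1.83 CPM.

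KARS1, the lysyl enzyme, was at 480.2, 465, 462 and 488 CPM in control libraries 1 to 4 and 479, 464, 470.4 and 480.4 CPM in shHNRNPC libraries 1 to 4 (log2 fold change -0.00066, SE 0.020, edgeR adjusted p = 0.98). All 4 knockdown libraries lay within the range of the controls. GARS1 and KARS1 both serve cytosol and mitochondria, and without them 15 of 17 cytosolic enzymes were lower and HARS1 higher, with the same median of -0.51. These 17 are a subset of the cytosolic list above. In comparison, 38.6% of all genes tested were called lower and 38.7% higher.

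The complex scaffolds went the other way. AIMP1 was at 60.2, 56.7, 55.6 and 62.7 CPM in control libraries 1 to 4 and 67.8, 68.1, 75.3 and 68.2 CPM in shHNRNPC libraries 1 to 4 (log2 fold change 0.25, SE 0.038, edgeR adjusted p = 5.3e-08) and AIMP2 at 74.3, 73.4, 71.4 and 72.8 CPM in control libraries 1 to 4 and 85.6, 80.7, 82.9 and 85.0 CPM in shHNRNPC libraries 1 to 4 (log2 fold change 0.19, SE 0.032, edgeR adjusted p = 1.4e-07). EEF1E1, the other scaffold of the complex, was listed apart from the 37 genes and also rose, from 34.9 ± 1.06 to 42.6 ± 3.37 CPM (± SD over 4 libraries, log2 change 0.29). None of the scaffolds overlapped between the groups, while 6 of the 7 listed synthetases of the complex fell. Over all genes tested, 35.4% did not overlap with higher values after knockdown and 38.6% were called lower. Of the AIMP2 exon bases 28.9% overlap EIF2AK1, and 44.4% of the 31-base words of its transcript also occur in transcripts of other genes. Its value is therefore uncertain. Exons of other genes overlap 11.6% of the AIMP1 and 18.7% of the EEF1E1 exon bases.

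The other cytosolic falls were smaller. VARS1 (valine) went from 188 ± 2.78 to 137 ± 3.96 CPM (± SD over 4 libraries, log2 change -0.46), NARS1 (asparagine) from 327 ± 5.98 to 248 ± 2.40 CPM (-0.40) and TARS1 (threonine) from 278 ± 6.39 to 259.7 ± 4.70 CPM (-0.10). Phenylalanyl-tRNA synthetase is built from an alpha subunit, FARSA, and a beta subunit, FARSB, and these differed: FARSB fell (log2 fold change -0.33, SE 0.025, edgeR adjusted p = 3.8e-19), whereas FARSA had a log2 fold change of 0.03 (SE 0.026, edgeR adjusted p = 0.36). The ratio of FARSA to FARSB counts was 0.856, 0.853, 0.923 and 0.855 in control libraries 1 to 4 and 1.14, 1.07, 1.13 and 1.13 in shHNRNPC libraries 1 to 4. Every knockdown library was above every control in this ratio, which does not depend on the scaling of libraries.

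HARS1, the histidyl enzyme, was the 1 cytosolic gene that rose, and its values are given because it was singled out after they were seen. It was at 130.2, 128, 131 and 126 CPM in control libraries 1 to 4 and 176, 173, 180.2 and 178 CPM in shHNRNPC libraries 1 to 4 (log2 fold change 0.46, SE 0.025, edgeR adjusted p = 6.9e-26). HARS2, its mitochondrial counterpart, starts next to it in the opposite orientation (chromosome 5, 140673905 to 140691370 for HARS1 and 140691455 to 140699305 for HARS2) and was called lower (log2 fold change -0.16, SE 0.042, edgeR adjusted p = 5.4e-04), although control library 2 (45.6 CPM) lay within the range of the knockdown libraries. Of the 31-base words of the HARS1 coding transcript 24.8% also occur in annotated transcripts of HARS2 or WDR55, so reads could be divided between these genes in a way the counts do not show.

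Synthetases fall into a pair of structural classes with unrelated catalytic folds. Of the 9 cytosolic class I enzymes (CARS1, IARS1, LARS1, MARS1, QARS1, RARS1, VARS1, WARS1 and YARS1) all 9 fell, and their median log2 change was -0.56. Of the 9 class II genes (AARS1, FARSA, FARSB, GARS1, HARS1, KARS1, NARS1, SARS1 and TARS1) 6 fell and HARS1 rose, with a median of -0.33. EPRS1 joins both classes in 1 protein and was counted in neither. Among the mitochondrial enzymes the medians were -0.0016 for 9 class I and -0.16 for 7 class II genes. As a background to these counts, 38.6% of all genes tested were called lower and 38.7% higher. The difference between the classes was not tested.

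VARS2, the mitochondrial valyl enzyme, had the largest fall of the mitochondrial group. It was at 102, 100.1, 105 and 94.3 CPM in control libraries 1 to 4 and 58.1, 55.5, 54.3 and 55.8 CPM in shHNRNPC libraries 1 to 4 (log2 fold change -0.84, SE 0.033, edgeR adjusted p = 8.8e-33), 55.7% of the control mean. All knockdown libraries were far below all controls. The gene lies on chromosome 6, 30914238 to 30926459, on the same chromosome as its cytosolic counterpart VARS1 (31777518 to 31795752), and 22.0% of its exon bases overlap GTF2H4.

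The other mitochondrial falls were modest. MARS2 (methionine) went from 32.7 ± 1.25 to 23.5 ± 0.911 CPM (± SD over 4 libraries, log2 change -0.48) and YARS2 (tyrosine) from 39.9 ± 2.14 to 29.7 ± 1.16 CPM (-0.42). SARS2 (serine, -0.31), TARS2 (threonine, -0.30), NARS2 (asparagine, -0.18) and WARS2 (tryptophan, -0.14) also fell. SARS2 is uncertain, since 57.0% of its exon bases overlap MRPS12 or another annotated gene and 86.7% of the 31-base words of its transcript also occur in transcripts of other genes. The WARS2 call did not hold without shHNRNPC library 4, or without libraries 2 and 3 together. Its libraries overlapped between groups, and without library 4 the log2 fold change was -0.09 (edgeR adjusted p = 0.061; range over 16 alternatives 0.00013 to 0.061).

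Mitochondrial rises were all small. CARS2 (cysteine) went from 61.6 ± 2.83 to 73.0 ± 2.79 CPM (± SD over 4 libraries, log2 fold change 0.25, SE 0.036, edgeR adjusted p = 7.4e-09), AARS2 (alanine) from 25.5 ± 1.45 to 29.4 ± 0.529 CPM (log2 fold change 0.21), LARS2 (leucine) from 45.7 ± 1.85 to 50.8 ± 2.13 CPM (0.15) and IARS2 (isoleucine) from 397 ± 8.13 to 435 ± 8.98 CPM (0.13). In each of these 4 genes every knockdown library was above every control, as in 35.4% of all genes tested. FARS2 (phenylalanine, 0.19, edgeR adjusted p = 0.072), EARS2 (glutamate, 0.05, edgeR adjusted p = 0.22), PARS2 (proline, -0.13, edgeR adjusted p = 0.12) and RARS2 (arginine, -0.0016, edgeR adjusted p = 0.97) did not pass the test. FARS2 and PARS2 were the least abundant members, at 7.09 and 13.0 CPM in the controls, and had the largest standard errors (0.096 and 0.077).

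Set side by side for the same amino acid, the cytosolic enzyme had the lower log2 fold change in 13 of 16 pairs, with EPRS1 used for both glutamate and proline and FARSA for phenylalanine. The ratio of cytosolic to mitochondrial counts within a library, which is free of library scaling, did not overlap between the groups in any of the 16 pairs. It was lower after knockdown in 13 and higher in 3. The gap was very narrow for tyrosine and phenylalanine. The lowest control YARS1 to YARS2 ratio was 9.620 and the highest after knockdown 9.611. For FARSA to FARS2 these values were 19.77 and 19.73. Of single genes 70.8% did not overlap in CPM in either direction, and no such share was computed for ratios of other gene pairs. The CARS1 to CARS2 ratio was 3.31 to 3.57 in the controls and 1.46 to 1.55 after knockdown. The AARS1 to AARS2 ratio was 22.1 to 25.6 and 11.4 to 11.8. In both pairs the cytosolic gene fell while the mitochondrial gene rose. IARS1 and IARS2 did the same, with a ratio of 2.06 to 2.12 and 1.23 to 1.30, as did LARS1 and LARS2, with 6.60 to 7.10 and 4.77 to 5.22. The opposite order held for histidine (HARS1 to HARS2, 2.50 to 2.81 and 3.78 to 4.23), valine (VARS1 to VARS2, 1.82 to 1.99 and 2.31 to 2.56) and threonine (TARS1 to TARS2, 4.51 to 4.93 and 5.0 to 5.89). In the pairs for valine and threonine both genes fell and the mitochondrial one fell further.

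**Figure D2:**
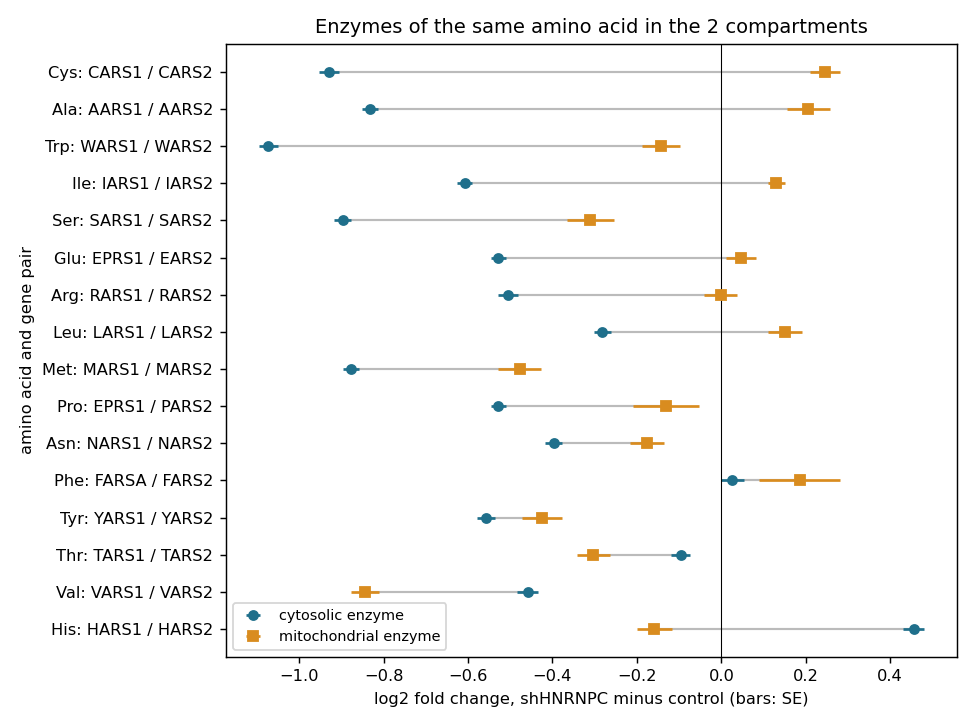
Log2 fold change (horizontal axis, shHNRNPC minus control, bars are SE) of the cytosolic enzyme (circles) and the mitochondrial enzyme (squares) for the same amino acid, ordered by the difference. The circle lies left of the square in 13 of 16 pairs, and furthest for cysteine, where CARS1 is at -0.93 and CARS2 at 0.25.

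Summed over genes, the 19 cytosolic synthetases took 7630.1, 7477, 7455 and 7540.2 CPM in control libraries 1 to 4 and 5242, 5180.4, 5214 and 5244 CPM in shHNRNPC libraries 1 to 4. The 16 mitochondrial enzymes took 1065, 1065, 1057 and 1073 CPM and 1027, 1035, 1040.0 and 1014 CPM. The cytosolic sum after knockdown was 69.4% of its control mean and the mitochondrial sum 96.6%, and neither overlapped between the groups. IARS2 alone held 397 CPM of the mitochondrial sum in the controls and 435 CPM after knockdown. Without it, a choice made after seeing the data, the mitochondrial sum was 667 ± 2.05 and 594 ± 7.97 CPM (SD, n = 4), 89.0% of the control mean. As shares of all counts, the cytosolic genes held 0.758 ± 0.00543% (SD, n = 4) and 0.518 ± 0.00259%. The ratio of cytosolic to mitochondrial synthetase counts was 7.07 ± 0.0667 in the controls and 5.07 ± 0.0789 after knockdown (SD, n = 4). These sums are descriptions and were not tested.

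**Figure D3:**
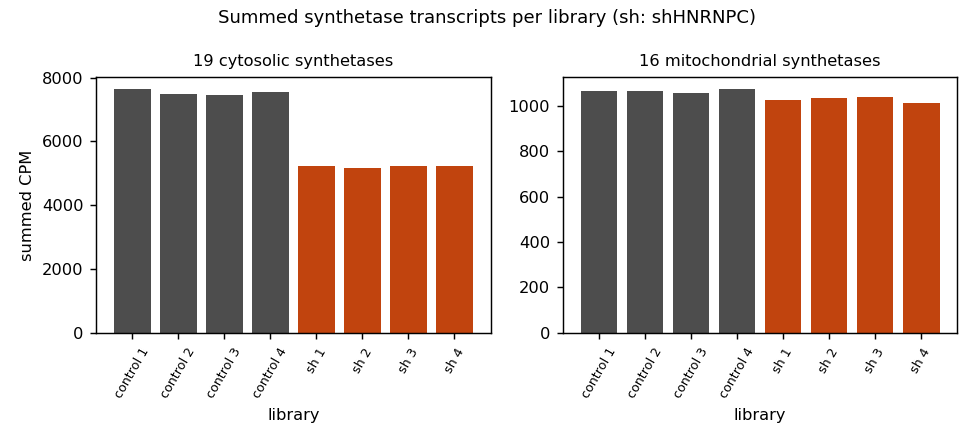
Bars give the summed CPM of the 19 cytosolic (left) and 16 mitochondrial (right) synthetases in each of the 8 libraries, with axes from 0 that differ between the panels. The 4 shHNRNPC bars are lower than the controls in both panels, at 69.4% and 96.6% of the control mean.

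Levels between genes were compared as CPM per kilobase of 1 transcript a gene, the one with the longest coding sequence in GENCODE release 29. In the controls the median level per kilobase was 118 for cytosolic and 19.01 for mitochondrial enzymes. GARS1 was highest (269 CPM per kilobase), followed by MARS1 (229.7) and SARS1 (225), whose ranges over the control libraries overlapped, and then KARS1 (196). IARS2 (112) was the 1 mitochondrial enzyme among the upper cytosolic levels, and its range overlapped that of TARS1 (110.1) in the controls. The lowest were AARS2 (6.61), PARS2 (5.56) and FARS2 (4.19). Of the 36 neighbouring pairs in this order, 15 overlapped in their control ranges. After knockdown KARS1 had the highest level (196 CPM per kilobase) and GARS1 came next (156). WARS1 moved from rank 9 to rank 17 of the 37 genes and IARS2 from rank 11 to rank 4. In the shHNRNPC libraries the IARS2 range overlapped those of MARS1 and SARS1, and the WARS1 range that of LARS1. The log2 fold change of IARS2 itself was 0.13, while most cytosolic enzymes fell. The coefficient of variation between libraries of a group was 0.617 to 3.58% for the cytosolic genes and 0.860 to 8.93% for the mitochondrial genes, whose median level is lower.

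**Figure D4:**
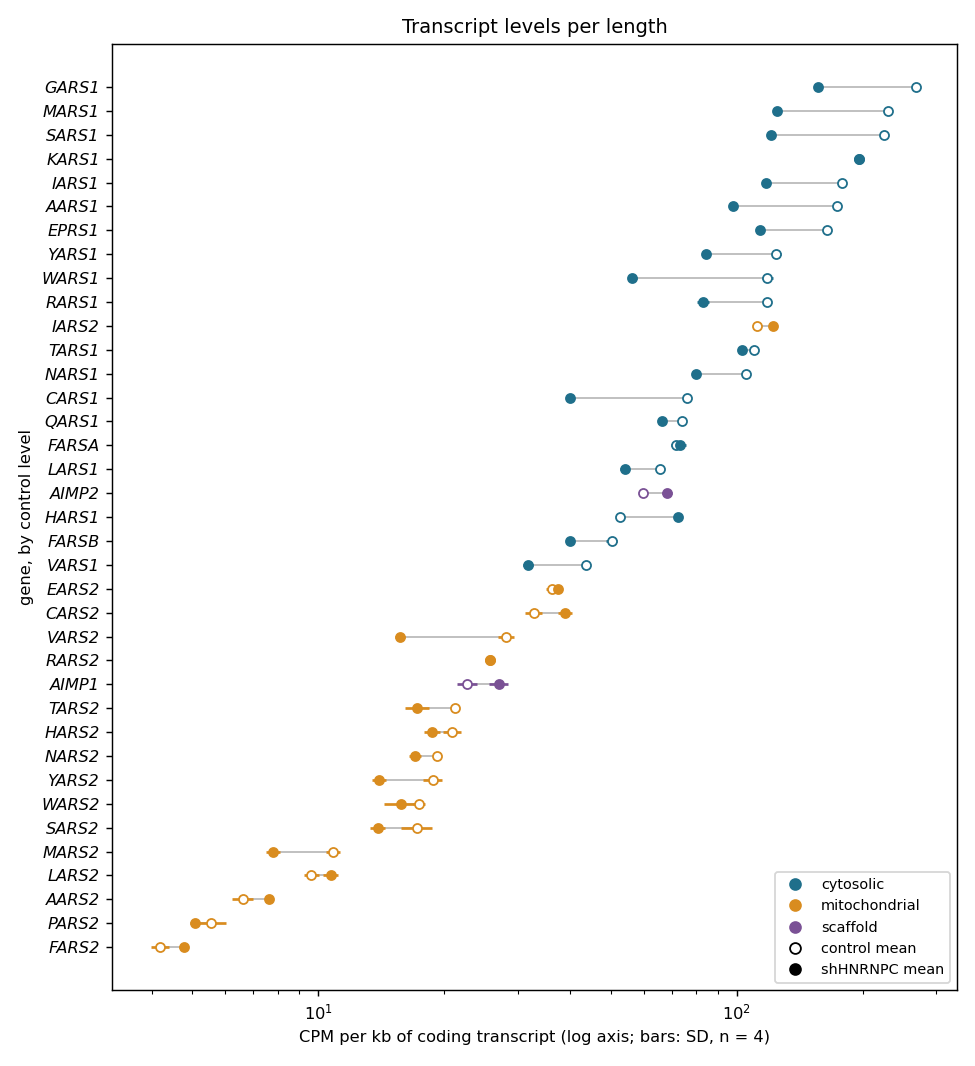
Mean CPM per kilobase of coding transcript (horizontal log axis, bars are SD over 4 libraries) of the 37 genes, ordered by control level, with open points for control and filled points for shHNRNPC libraries. GARS1 is highest in the controls (269) and FARS2 lowest (4.19), and VARS1 (43.6) is the lowest cytosolic enzyme.

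Genes of the amino acid response, listed with earlier results of these data known, were mostly lower as well. Of 31 tested, 28 fell and 2 rose, where 38.6% of all genes tested were called lower and 38.7% higher. Their median log2 change was -0.98, beside -0.01 over all genes tested, and a difference from the synthetases was not tested. ATF4 itself was at 597, 603, 581 and 589 CPM in control libraries 1 to 4 and 363, 355, 374 and 356 CPM in shHNRNPC libraries 1 to 4 (log2 fold change -0.71, SE 0.020, edgeR adjusted p = 2.9e-41). ASNS, which makes asparagine, went from 431 ± 12.2 to 103 ± 1.14 CPM (± SD over 4 libraries, log2 change -2.07), although 44.6% of its exon bases overlap another annotated gene. STC2 (-2.29), a secreted glycoprotein, CHAC1 (-2.26), which degrades glutathione, PCK2 (-2.14), the mitochondrial phosphoenolpyruvate carboxykinase, and the transcription factor CEBPB (-2.07) had the largest falls of the list. The sensor kinase gene EIF2AK4, which encodes GCN2, was not called (-0.05, edgeR adjusted p = 0.056), and ATF3 rose (0.34). The leucine transporter SLC7A5 was called higher (0.04, edgeR adjusted p = 0.020), but its libraries overlapped between groups and it was not called in 6 of 16 alternatives (adjusted p from 0.0037 to 0.38), among them those without control library 2 or shHNRNPC library 4. These 3 genes were named after their values were seen. ATF4 was below every control in all 4 knockdown libraries, as were the 16 cytosolic synthetases that fell and 35.4% of all genes tested. The part of the ATF4 difference in the synthetase falls was not tested.

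The lists of other genes of tRNA charging and supply held calls in both directions, to be read beside the 38.7% of all genes tested that were called higher and the 38.6% called lower. Of 14 other aminoacylation genes tested 9 fell and 3 rose (median -0.16), and the 9 became 6 without control library 1, control library 2 or shHNRNPC library 1 and without shHNRNPC libraries 2 and 3 together. SEPSECS (-0.62), which makes selenocysteinyl-tRNA, GATC (-0.55, with 47.6% of exon bases overlapping other genes), a subunit of the mitochondrial amidotransferase that makes glutaminyl-tRNA, and DTD1 (-0.49), which removes D-amino acids from tRNA, fell, and SEPHS1 (0.44) rose. Of 21 genes of tRNA maturation and export 14 rose and 4 fell (median 0.19). The splicing endonuclease subunit TSEN15 (-0.56) and the tRNA 3′ processing enzyme ELAC1 (-0.46) fell, and POP1 (0.43), a subunit of RNase P, rose. Of 21 RNA polymerase III genes 9 rose and 8 fell (median 0.06), with POLR3D (-1.07) and the catalytic subunit POLR3A (-0.68) lower and POLR3G (0.51) and GTF3C6 (0.48) higher. Of 14 mitochondrial translation factors 3 rose and 7 fell (median -0.11), with GUF1 (-0.73), MTIF2 (-0.27) and MTRF1 (-0.26) lower and the ribosome recycling factor MRRF (0.57) higher.

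**Figure D5:**
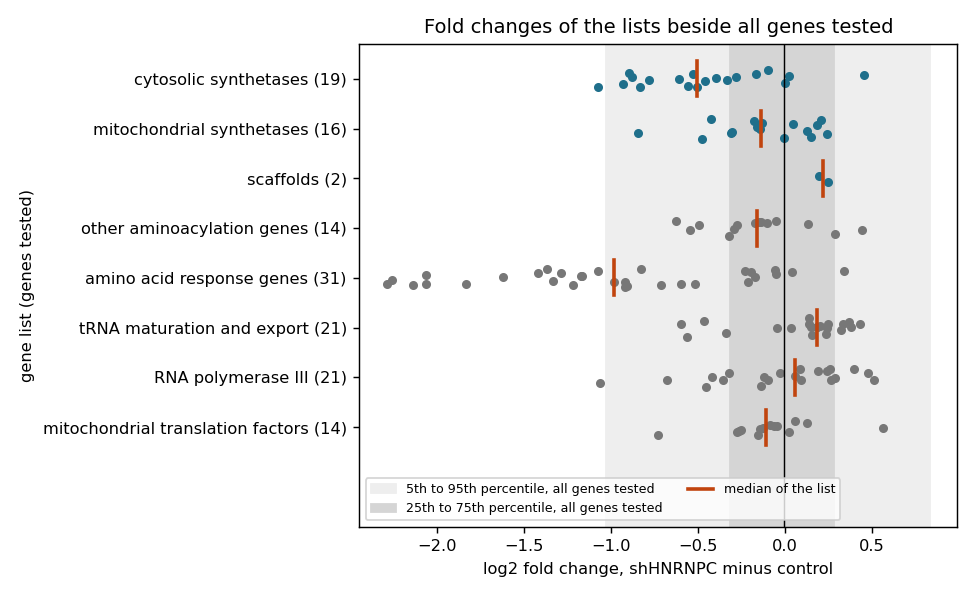
Log2 fold changes (horizontal axis, shHNRNPC minus control) of the genes of 8 lists, 1 point per gene and a bar at each median, over shaded percentiles of all 12001 genes tested. The cytosolic synthetases (median -0.51) lie between the amino acid response genes (median -0.98) and the mitochondrial synthetases (median -0.14).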

How the data were processed

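Poly(A) RNA of KYSE150 cells was read as paired ends of 150 bases, 4 control and 4 shHNRNPC libraries. The deposited table holds whole-number counts per gene, made by the authors from reads cleaned with fastp, per the series' design text, with hg38 as the genome build per the submitters' processing notes. For the aligner, the counter, its strand setting and the annotation release, the name is not given in the sources used here. Genes under 10 counts by edgeR's group-wise filter (15 in total) were left out, and 12001 of 16082 were tested with edgeR 4.0.16 (limma 3.58.1, R 4.3.3): TMM factors, robust quasi-likelihood fit, group as the only term, all 8 libraries, Benjamini-Hochberg adjustment over all genes tested, threshold 0.05. Printed CPM use the TMM-scaled library sizes. The 37 genes and all other lists were chosen with earlier results of these data known. Values in every library are given for HNRNPC, for members called with a log2 change of at least 0.5 in size, and for WARS1, AIMP1 and AIMP2. KARS1, HARS1, ATF4 and the FARSA to FARSB ratio were added after their values were seen. Up to 4 genes of each other list were named by size of change, and some genes that this rule takes are left out here. The FARSA to FARSB, cytosolic to mitochondrial and pair ratios use counts of 1 library. A 7-base word in 3′ UTRs was searched for 1 alternative. Gene positions and promoter windows come from RefSeq (GRCh38.p14), transcript lengths, exon overlaps, 3′ UTRs and shared 31-base words from GENCODE release 29 (all 37 genes matched). Alternatives were DESeq2 1.42.0, no TMM factors, upper-quartile factors, no filter, a filter of 1 CPM in 4 samples, a replicate block, and leaving out each library. Leaving out shHNRNPC libraries 1 and 4, or 2 and 3, together was chosen after seeing the data, because a principal component set these pairs apart. Tables and plots were made with Python 3.11.15, pandas 2.3.3, numpy 2.4.6 and matplotlib 3.10.9.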

Additional observations from a re-analysis of the deposited data

Results flagged for a closer look

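In 6 of 80 groups of 4 libraries examined, the highest or lowest library stood apart from the other 3 by more than Dixon's 95% critical value for the gap as a share of the range. Chance flags about 1 in 20 groups. TARS1 was at 268.2 CPM in control library 3, below 279.8 to 282.1 CPM in the other controls. YARS2 was at 36.7 CPM in control library 1, below 40.5 to 41.16 CPM in the others. HARS2 was at 45.58 CPM in control library 2, below 50.43 to 51.01 CPM in the others, and this library is the one that overlaps the knockdown group. FARSA was at 142.3 CPM in shHNRNPC library 2, below 152.0 to 154.0 CPM in the others. CARS2 was at 77.15 CPM in shHNRNPC library 2, above 71.28 to 72.12 CPM in the others. AIMP1 was at 75.27 CPM in shHNRNPC library 3, above 67.84 to 68.16 CPM in the others.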

How the results depend on the processing

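Of 37 genes 33 kept their direction and their side of the threshold under all 16 alternatives. The other 4 are KARS1, FARSA and RARS2, which were not called and have values near 0, and WARS2. The KARS1 log2 fold change was 0.00032 with DESeq2, 0.019 without shHNRNPC libraries 2 and 3, and -0.012 to 0.016 when single libraries were left out. The FARSA log2 fold change was -0.00038 with upper-quartile factors. The RARS2 log2 fold change was 0.022 without shHNRNPC libraries 1 and 4 and -0.014 to 0.019 when single libraries were left out. WARS2 was not called without shHNRNPC library 4 (-0.09, edgeR adjusted p = 0.061) or without libraries 2 and 3 (-0.13, adjusted p = 0.053), so 7 mitochondrial genes in place of 8 were lower there. The median of the 19 cytosolic genes was -0.53 without TMM factors, -0.53 with upper-quartile factors, -0.47 without shHNRNPC libraries 1 and 4, -0.53 without 2 and 3, and -0.51 to -0.48 when single libraries were left out. The cause of these differences was not tested.

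The replicate numbers did not pair the libraries: same-numbered libraries had correlations of deviations from -0.055 to 0.017, other pairs -0.061 to 0.053, and 2 of 8 libraries correlated best with their own number. With the replicate number as a block (replicate block) the number of all genes called was 9219 in place of 9275, and the cytosolic (16 lower, 1 higher) and mitochondrial (8 lower, 4 higher) counts were the same. Another alternative would leave out genes with the word GAATGAT, chosen in earlier work on these data, in their annotated 3′ UTR. Of the 37 genes, none of the 34 with such a UTR carried it, so for them it gave no other value. SEPSECS, CEBPB and GUF1, named above from other lists, do carry it, and leaving such genes out of those lists was not tested. Carriers of the word were called lower in 56.3% of 1166 cases, and genes whose UTR lacks it in 36.7% of 10256. The part of the word in these calls was not tested. FARS2 and PARS2, the least abundant at 7.09 and 13.0 CPM in the controls, had the largest standard errors.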
